A study of Mus musculus with 8 samples.

Results

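The response of Oscar-/- knee cartilage to surgical destabilization of the medial meniscus (DMM) was read from 4 of the 8 libraries of the study, those made from Oscar-/- mice. They comprise 1 library each of sham-operated and DMM-operated joints at 2 weeks, and 1 each at 4 weeks, and they were chosen by the genotype, surgery and week in their labels. Genes were compared between the DMM and the sham library of the same week. The other 4 libraries hold WT cartilage after the same operations and times, and they served for the spread of the test and for comparing the 2 genotypes.

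DMM cuts the ligament that anchors the medial meniscus, so that load shifts within the joint and the articular cartilage degenerates as in post-traumatic osteoarthritis (OA). OSCAR, the osteoclast-associated receptor, is an immunoglobulin-like receptor of myeloid cells and osteoclasts that binds collagen and signals through an adaptor protein. Articular cartilage is built by chondrocytes, which secrete a matrix of type II collagen and the proteoglycan aggrecan, and its surface cells secrete the lubricant lubricin (Prg4).

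All mice were C57BL/6 males, labelled as 10 weeks old, with DMM performed between 10 and 12 weeks of age. The Oscar-/- animals lacked the gene in every cell, not in chondrocytes alone. Each library pooled 10 articular cartilages, so that each condition has 1 library and the spread between animals was not measured. Oscar (chromosome 7 of GRCm38, 3609813-3616157) had 0 counts in all 4 Oscar-/- libraries, and between 42 and 118 expected counts in the WT libraries.

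The Oscar-/- libraries held between 13189181 and 17948825 expected counts, the read numbers that RSEM assigns to genes. Levels are given as TPM, in which transcript numbers are corrected for gene length and library size. The labelled tissue was present but was a small share of the RNA. The 25 genes of the cartilage matrix list summed to between 0.123% and 0.346% of all TPM, whereas 22 erythroid genes, mostly hemoglobins, summed to between 26.8% and 37.4%. Late neutrophil genes made up between 7.02% and 11.4%. The Oscar-/- sham library of 4 weeks stood apart in RNAs outside the genes tested, which were chosen after their values had been seen. The ribosomal RNA-like transcript AY036118 was at 13831 TPM in it, against 147 to 349.6 TPM in the other 7 libraries. In the same library Rn7sk, the RNA of the 7SK particle, was at 681 TPM, against no more than 38.9 TPM elsewhere. Several results that turn on this library are therefore given with and without it. The ratios of 4 weeks alone have no value without it.

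Of 12546 protein-coding genes tested, 2 rose and 13 fell after DMM in Oscar-/- cartilage (edgeR quasi-likelihood test over both weeks, adjusted p under 0.05). These are 0.0159% and 0.104% of the genes. The gene that rose with the most reads was Postn, which encodes periostin, a matrix protein of fibrous tissue. The genes that fell included makers of the cartilage matrix and its fibres: Hapln1, the link protein that ties aggrecan to hyaluronan, Lox, the lysyl oxidase that cross-links collagen, Tnxb, a tenascin of connective tissue, and Clec3a, a lectin of cartilage. They also included Egr1, a transcription factor made within minutes of a stimulus, and Hhip, which binds and restrains hedgehog proteins. In all 15 genes both DMM libraries lay beyond both sham libraries, a pattern that 17.0% of all genes showed upwards and 15.4% downwards. The 15 were chosen by the test of DMM against sham, which uses these libraries, so the pattern adds no support to them. The adjusted p of the 15 lay between 0.0167 and 0.0342. At an unadjusted p under 0.05, 654 genes were higher (5.21%) and 806 lower (6.42%). These shares are the reference for the counts of list members at that level in the fit with all libraries.

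Postn (chromosome 3, 54361109-54391037) was at 13.4 TPM after sham surgery and 35.4 TPM after DMM in the 2-week libraries, with 11.6 and 18.2 TPM in those of 4 weeks. Both DMM libraries were above both sham libraries, and the distance was larger at 2 weeks. Its log2 fold change over both weeks was 0.85 ± 0.12 (SE, edgeR adjusted p = 0.0338). The second gene, Ccl21b, encodes a chemokine that draws T cells and dendritic cells to lymphatic vessels. Its level went from 0.26 to 4.81 TPM at 2 weeks and from 0.68 to 4.38 TPM at 4 weeks. The 2-week sham library held only 2.67 expected counts, so that the ratio of rounded counts scaled to library size, 17.4, has an exact 95% counting interval from 5.65 to 86.6. Ccl21a, a near-identical copy, went from 2.44 to 6.87 TPM at 2 weeks and from 1.69 to 10.2 TPM at 4 weeks, without passing the test (edgeR adjusted p = 0.0591). How reads were divided between these copies is uncertain.

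Clec3a had the highest level among the genes that fell. Pairs of values are written as sham versus DMM. At 2 weeks it was at 409.6 TPM after sham surgery and 109 TPM after DMM, and at 4 weeks it was at 207 and 107 TPM. The 2 DMM libraries were close to each other, while the sham libraries differed by more than the 4-week pair did. Hapln1 (chromosome 13, 89539796-89611652) was at 21.2 versus 9.93 TPM (2 weeks) and 12.6 versus 6.56 TPM (4 weeks). Its log2 fold change was -0.97 ± 0.14 (SE, edgeR adjusted p = 0.0338), with similar distances at both weeks. Lox fell from 32.9 to 15.7 TPM at 2 weeks and from 20.9 to 13.1 TPM at 4 weeks. Tnxb (chromosome 17, 34670535-34719815) had the lowest p of all genes, with 2.79 and 1.16 TPM at 2 weeks and 2.36 and 1.08 TPM at 4 weeks. Its log2 fold change was -1.08 ± 0.11 (SE, edgeR adjusted p = 0.0167). Here the 2 sham libraries were near each other, and so were the 2 DMM libraries.

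Aldh1a3, which makes retinoic acid from retinal, fell by 1.23 on the log2 scale (SE 0.15, edgeR adjusted p = 0.0338), from 4.78 to 1.94 TPM at 2 weeks and from 5.73 to 2.45 TPM at 4 weeks. Hhip (chromosome 8, 79965851-80058006) was at 1.96 versus 0.24 TPM (2 weeks) and 1.09 versus 0.42 TPM (4 weeks). Pcsk6, a proprotein convertase that activates TGF-β family members and matrix proteases, was at 25.1 versus 11.2 TPM (2 weeks) and 20.0 versus 12.6 TPM (4 weeks). In each of these genes the sham libraries of both weeks were the higher pair. Vsig4, a complement receptor of resident macrophages, fell from 9.72 to 2.07 TPM at 2 weeks and from 7.24 to 3.01 TPM at 4 weeks. Of the 18 genes of the macrophage and monocyte list, 3 were higher and none lower at an unadjusted p under 0.05, with a median log2 fold change of 0.09. Myoc, which encodes the secreted protein myocilin, had the largest fitted decrease of the 13, at -1.68 ± 0.26 on the log2 scale (SE, edgeR adjusted p = 0.0342). The smallest was that of Cd109, a membrane protein that binds TGF-β, at -0.64 ± 0.09 (SE, edgeR adjusted p = 0.0338). Raph1, a regulator of the actin cytoskeleton, and Ildr2, an immunoglobulin-like receptor expressed at about 1 TPM or less, were also among the genes that fell.

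**Figure D1:**
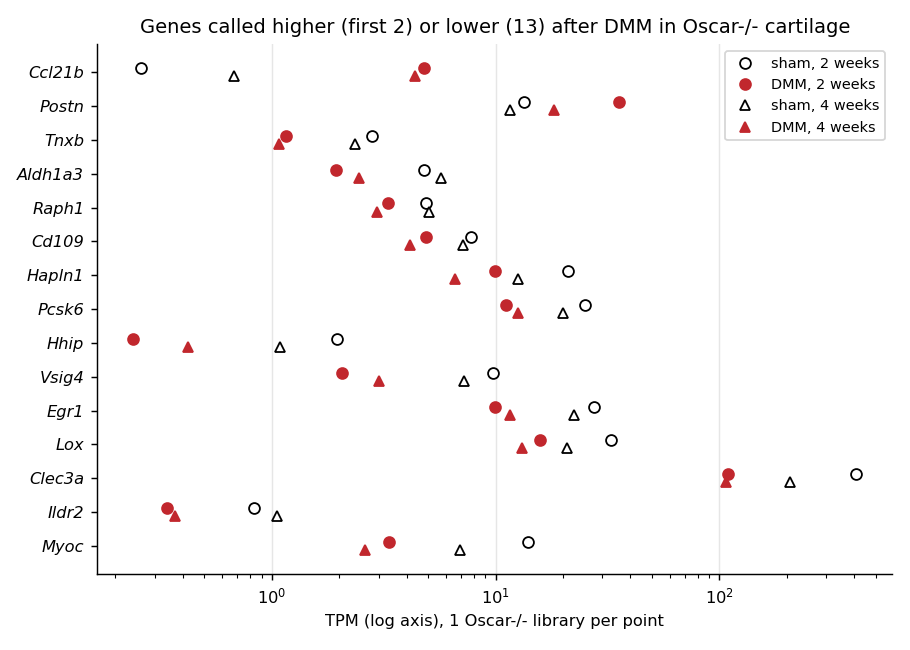
TPM on a log axis of the 15 genes that passed the test, 1 Oscar-/- library per point, with open symbols for sham and filled symbols for DMM, circles for 2 weeks and triangles for 4 weeks. Both filled symbols lie to the right of both open symbols for Ccl21b and Postn and to the left of them for the 13 other genes, as for Clec3a at 109 and 107 TPM after DMM against 409.6 and 207 TPM after sham surgery.

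No condition was repeated, so the p-values measure the spread left after terms for group and week, with 3 residual degrees of freedom, and without the Oscar-/- sham library of 2 weeks no gene passed edgeR (405 genes higher and 445 lower at an unadjusted p under 0.05), while DESeq2 with all libraries called 11 higher and 63 lower and limma 8 and 87. Without the Oscar-/- sham library of 4 weeks edgeR called 4 higher and 30 lower.

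Most cartilage matrix genes had lower levels after DMM, although few passed the test singly. Of 23 tested, 21 had a log2 fold change below 0, 17 were lower at an unadjusted p under 0.05, and Hapln1 alone passed the adjusted test. DESeq2 called 3 and limma 11 of the 23 lower. The limma fit used TPM without TMM scaling, and its median log2 fold change over all genes tested was -0.08, so that its values lean downwards. In the edgeR fit the median log2 fold change of the list was -0.87, against 0.01 over all genes tested. The weekly medians were -0.95 at 2 weeks and -0.63 at 4 weeks. Without the sham library of 2 weeks the list median was -0.66, with 9 genes lower at an unadjusted p under 0.05 and none called. Without that of 4 weeks the median was -1.13. In bulk tissue, fewer chondrocytes and less RNA per chondrocyte cannot be told apart.

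Prg4, which encodes lubricin, was at 809.9 versus 417 TPM (2 weeks) and 838 versus 436 TPM (4 weeks), so that the sham libraries and the DMM libraries each stayed at 1 level. Acan, which encodes aggrecan, was at 68.9 versus 30.2 TPM (2 weeks) and 34.9 versus 19.3 TPM (4 weeks). Cilp, a protein of the intermediate zone of cartilage, was at 288 versus 82.8 TPM (2 weeks) and 177 versus 97.1 TPM (4 weeks). None of these 3 passed the adjusted test, although sham and DMM libraries did not overlap in any of them (edgeR adjusted p = 0.0591 for Prg4, 0.0784 for Acan and 0.0779 for Cilp). Sox5, a transcription factor that chondrocytes need for matrix gene expression, had a log2 fold change of -0.87 ± 0.16 (SE, edgeR adjusted p = 0.0591). Col2a1, which encodes type II collagen, was at 209 versus 128 TPM (2 weeks) and 90.6 versus 59.5 TPM (4 weeks). In Col2a1 the libraries overlapped, since the DMM library of 2 weeks was above the sham library of 4 weeks, and its log2 fold change was -0.58 ± 0.35 (SE, edgeR adjusted p = 0.562).

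**Figure D2:**
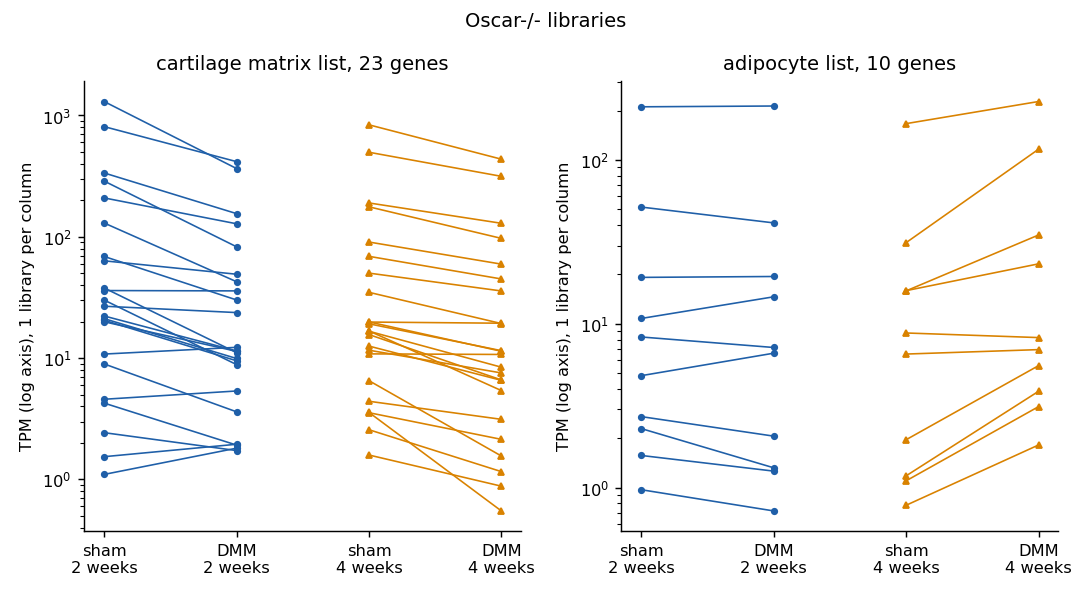
TPM on a log axis in the 4 Oscar-/- libraries, 1 line per gene and week, for the 23 tested genes of the cartilage matrix list (left) and the 10 of the adipocyte list (right). Most cartilage lines descend from sham to DMM at both weeks, as Acan does from 68.9 to 30.2 TPM at 2 weeks, whereas the adipocyte lines ascend mainly at 4 weeks, as Cfd does from 31.3 to 116 TPM.

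Genes of the deeper zones and of bone had smaller negative medians. Among 13 growth plate and hypertrophy genes, 7 were lower at an unadjusted p under 0.05 and none passed the adjusted edgeR or DESeq2 test (limma called 1), with a median log2 fold change of -0.33. Ihh, the hedgehog protein of prehypertrophic chondrocytes, was at 3.35 versus 1.52 TPM (2 weeks) and 2.83 versus 1.20 TPM (4 weeks), and Ptch1, a hedgehog receptor that is also a target of the pathway, was at 5.28 versus 3.03 TPM (2 weeks) and 4.52 versus 3.02 TPM (4 weeks). Both DMM libraries were below both sham libraries in each gene, at edgeR adjusted p = 0.124 for Ihh and 0.0784 for Ptch1. Of 19 osteoblast and osteocyte genes, 7 were lower at an unadjusted p under 0.05, none by the adjusted edgeR or DESeq2 test and 1 by limma, with a median of -0.25. Sost, an inhibitor of WNT signalling made by osteocytes, was at 27.3 versus 9.56 TPM (2 weeks) and 32.0 versus 19.6 TPM (4 weeks).

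Of 19 genes that modify or cross-link collagen, Lox passed the test and 8 were lower at an unadjusted p under 0.05. Plod2, a lysyl hydroxylase, was at 24.9 versus 15.5 TPM (2 weeks) and 21.3 versus 12.2 TPM (4 weeks) (edgeR adjusted p = 0.0591). Of 30 TGF-β and BMP genes, 12 were lower at an unadjusted p under 0.05 and none higher, with a median of -0.22. None passed the adjusted edgeR test, and 1 did so with DESeq2 and none with limma. Among them, Tgfbr3, a co-receptor, had a log2 fold change of -0.64 ± 0.14 (SE, edgeR adjusted p = 0.0896). Of 23 WNT genes, 6 were lower at an unadjusted p under 0.05, which includes the secreted inhibitors Wif1 and Dkk1, and 1 was higher. None passed the adjusted test with edgeR or DESeq2, and limma called 1 lower. Wif1 was at 118 versus 60.2 TPM (2 weeks) and 66.3 versus 45.0 TPM (4 weeks), without passing the adjusted test (edgeR adjusted p = 0.153). Without the sham library of 2 weeks, the genes lower at an unadjusted p under 0.05 numbered 4 for hypertrophy, 0 for osteoblasts, 3 for collagen cross-linking, 6 for TGF-β and BMP and 0 for WNT, and none was called.

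Among the lists that mark no cell type, the immediate early genes and the circadian clock genes had the most negative medians. Others had smaller negative medians, such as hypoxia and glycolysis (-0.12) and the genes encoded in mitochondria (-0.11). Of 27 immediate early genes, which cells transcribe within minutes of a stimulus, 15 were lower at an unadjusted p under 0.05, and Egr1 passed the adjusted test. Egr1 was at 27.5 versus 9.93 TPM (2 weeks) and 22.4 versus 11.7 TPM (4 weeks). Fosb, a subunit of the AP-1 transcription factor, was at 2.63 versus 0.99 TPM (2 weeks) and 4.22 versus 1.57 TPM (4 weeks), and Ccn2, a matricellular growth factor, at 301 versus 106 TPM (2 weeks) and 221 versus 120 TPM (4 weeks). The median of the immediate early list was -0.31 on the log2 scale, and -0.28 without the sham library of 2 weeks.

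All 17 circadian clock genes tested had a log2 fold change below 0, against 48.6% of all genes, with a median of -0.40. At both weeks 3811 of the 12546 genes tested were below 0, and so were 15 of the 17 clock genes. At an unadjusted p under 0.05, 11 were lower (6 without the sham library of 2 weeks), and none passed the adjusted test with edgeR, DESeq2 or limma. Nr1d1, which encodes the repressor REV-ERBα, was at 13.7 versus 7.19 TPM (2 weeks) and 12.3 versus 8.19 TPM (4 weeks). Bhlhe40, a repressor of clock genes, was at 14.6 versus 9.33 TPM (2 weeks) and 17.8 versus 12.5 TPM (4 weeks). The DMM libraries were below the sham libraries in both. At the other end of the list, Arntl, which encodes the activator BMAL1, had a log2 fold change of -0.02 (edgeR unadjusted p = 0.873), and Clock of -0.08 (edgeR unadjusted p = 0.55). Both genes were chosen after their values had been seen.

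The clock activators bind the E-box CACGTG, and the promoters of clock genes that hold it are shown because all tested genes of this list had negative values. Whether the motif has a part in these values was not tested. Promoter sequences came from RefSeq (GRCm38.p6) and covered 15 of the 18 listed genes. Within the 250 bases before the start site, CACGTG, which reads the same on both strands, was in 5 of these 15 (Bhlhe41, Ciart, Cry1, Per1 and Tef). It was in 6.86% of all 27025 genes with a promoter sequence, whether or not they were tested for expression. Ciart, which encodes a repressor of the clock, held it 3 times and had a log2 fold change of -0.80 (edgeR unadjusted p = 0.0465). Tef, a PAR bZIP transcription factor with a log2 fold change of -0.47 (edgeR unadjusted p = 0.00476), held it once in each of its 2 promoters, and Bhlhe41, a relative of Bhlhe40, once with a log2 fold change of -0.63. The other 2 carriers, Cry1 and Per1, had values of -0.11 and -0.13. Ciart, Bhlhe41, Cry1 and Per1 were named for the motif. The promoters shown are those of the 3 carriers with the larger values. The sequences run 5′ to 3′ with CACGTG in capitals, from chr3:95882229-95882478 on the minus strand, chr15:81811164-81811413 on the plus strand and chr6:145865421-145865670 on the minus strand.
Ciart: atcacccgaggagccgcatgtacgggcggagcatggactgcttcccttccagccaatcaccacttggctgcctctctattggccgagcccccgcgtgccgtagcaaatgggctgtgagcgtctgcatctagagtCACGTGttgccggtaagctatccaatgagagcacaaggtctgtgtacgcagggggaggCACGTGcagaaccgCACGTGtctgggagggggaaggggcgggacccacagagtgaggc
Tef: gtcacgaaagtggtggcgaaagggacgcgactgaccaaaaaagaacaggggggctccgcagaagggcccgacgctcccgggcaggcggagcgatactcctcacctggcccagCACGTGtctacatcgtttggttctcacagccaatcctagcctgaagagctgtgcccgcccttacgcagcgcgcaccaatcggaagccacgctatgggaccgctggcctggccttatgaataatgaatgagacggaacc
Bhlhe41: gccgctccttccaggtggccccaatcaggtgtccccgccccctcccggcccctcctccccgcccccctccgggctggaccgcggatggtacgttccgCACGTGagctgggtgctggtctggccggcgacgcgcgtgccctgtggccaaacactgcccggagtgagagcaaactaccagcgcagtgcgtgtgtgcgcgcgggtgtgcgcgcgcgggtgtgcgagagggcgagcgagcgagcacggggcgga

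On the side of the genes that were higher, Postn belongs to the synovial fibroblast list, whose genes were divided. Of 20 tested, 5 were higher and 7 lower at an unadjusted p under 0.05, and the median was -0.01. Col3a1, the type III collagen of repair and fibrous tissue, was at 40.0 versus 133 TPM (2 weeks) and 32.4 versus 52.6 TPM (4 weeks) (edgeR adjusted p = 0.0591). Aspn, a small leucine-rich matrix protein outside that list, was at 6.75 versus 17.1 TPM (2 weeks) and 7.50 versus 10.8 TPM (4 weeks) (edgeR adjusted p = 0.0591). Both showed the larger distance at 2 weeks. In the other direction, Fn1, which encodes fibronectin, was at 248 versus 178 TPM (2 weeks) and 243 versus 130 TPM (4 weeks).

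Smaller positive values were found in the platelet, erythroid, B cell and endothelial lists and in 2 genes of the MHC class II complex, neither of which passed the test (edgeR adjusted p = 0.0591 for H2-Eb1 and 0.0896 for Cd74). H2-Eb1, a chain of MHC class II, was at 100.3 versus 131 TPM (2 weeks) and 104 versus 138 TPM (4 weeks), and Cd74, its invariant chain, at 326 versus 419 TPM (2 weeks) and 331 versus 432 TPM (4 weeks). All 22 erythroid genes and all 17 B cell genes had a log2 fold change above 0, against 51.4% of all genes tested. Their medians were 0.28 and 0.26, and 14 and 8 of them were higher at an unadjusted p under 0.05 (5.21% of all genes). Of 18 platelet genes 15 were above 0 and 13 were higher at that level, with a median of 0.51, and among 17 endothelial genes 6, with a median of 0.24. No gene of these 4 lists passed the adjusted test with edgeR, DESeq2 or limma. The direction was not particular to them. Values above 0 were also found in all 30 cell cycle genes (median 0.18) and all 12 T and NK cell genes (0.34). The same held for 78 of 79 ribosomal protein genes (0.17). The summed TPM of the erythroid list went from 326980 to 348420 at 2 weeks and from 268060 to 373750 at 4 weeks, and the part of this difference in the other results was not tested. Without the sham library of 4 weeks the medians were 0.17 for erythroid, 0.33 for platelet, 0.41 for B cell and 0.23 for endothelial genes. The median over all genes tested was then 0.004. Without the sham library of 2 weeks the 4 medians were 0.39, 0.54, 0.13 and 0.23 in the same order, against -0.003 over all genes.

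**Figure D3:**
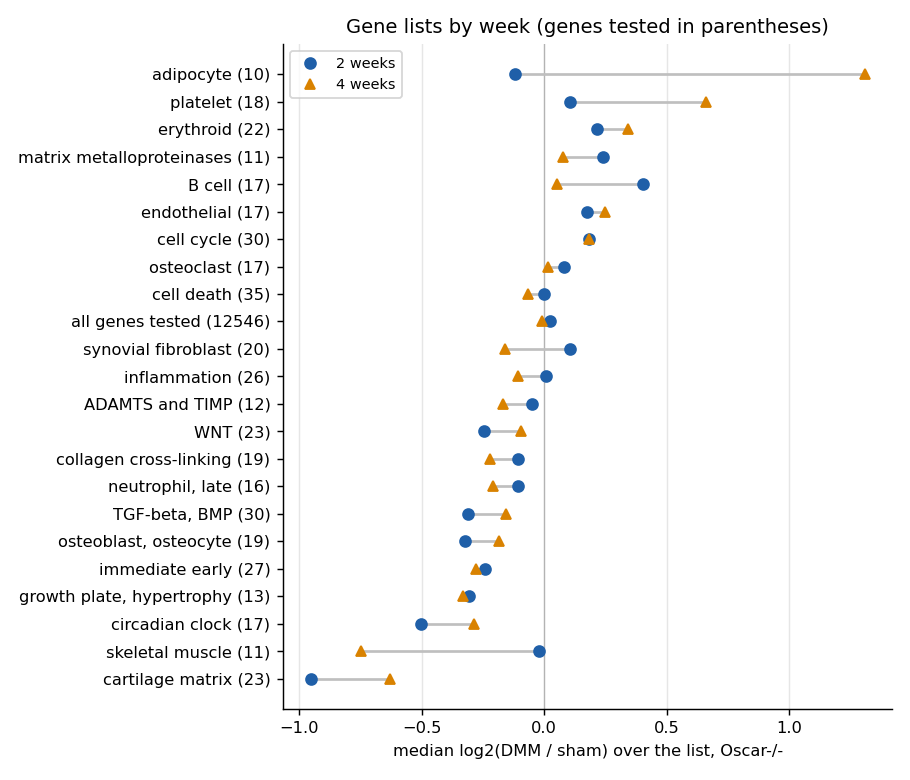
Median log2(DMM/sham) of each gene list in Oscar-/- cartilage at 2 weeks (circles) and 4 weeks (triangles), on TMM-scaled counts, with the number of genes tested in parentheses. The cartilage matrix list lies lowest at 2 weeks (-0.95), and the adipocyte list has the widest distance between weeks, from -0.12 to 1.31.

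The matrix-degrading enzymes and cell death genes that the study examined did not pass the test in Oscar-/- cartilage. Mmp3, which encodes stromelysin-1, was at 0.99 versus 2.81 TPM (2 weeks) and 0.83 versus 1.51 TPM (4 weeks), with a log2 fold change of 1.31 ± 0.28 (SE, edgeR adjusted p = 0.0892). Mmp2, a gelatinase, was at 27.5 versus 46.9 TPM (2 weeks) and 30.0 versus 33.9 TPM (4 weeks) (0.43 ± 0.10, SE, edgeR adjusted p = 0.118). In both genes the DMM library was the higher of each pair. Mmp13, the main collagenase of cartilage, was at 99.9 versus 128 TPM (2 weeks) and 103 versus 81.3 TPM (4 weeks), in opposite directions at the 2 times. Adamts5, an aggrecanase, had a log2 fold change of -0.28 ± 0.15 (SE, edgeR adjusted p = 0.52).

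Among 35 cell death genes the median log2 fold change was 0.02. Of these, 1 was higher and 3 were lower at an unadjusted p under 0.05, and none passed the adjusted test with edgeR or DESeq2. At the adjusted level 1 was lower with limma, 1 with edgeR on the 4 Oscar-/- libraries alone and 1 with edgeR without the sham library of 4 weeks. Tnfsf10, which encodes the death ligand TRAIL, was at 1.36 versus 1.22 TPM (2 weeks) and 1.51 versus 1.46 TPM (4 weeks). The levels of sham and DMM libraries overlapped, and its log2 fold change was 0.01 (edgeR adjusted p = 0.99). Tnfrsf11b, which encodes osteoprotegerin, a decoy receptor for TRAIL and RANKL, was at 32.0 versus 8.15 TPM (2 weeks) and 22.8 versus 12.0 TPM (4 weeks). Both DMM libraries were below both sham libraries, with a log2 fold change of -1.34 ± 0.25 (SE, edgeR adjusted p = 0.0591). Nos2 had between 5 and 10 expected counts in the Oscar-/- libraries and was not tested, and Ptgs2 (-0.34) and Epas1 (-0.14) did not pass (edgeR adjusted p = 0.625 and 0.678).

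The responses at 2 and 4 weeks overlapped in part. Across 12546 genes, which are not independent of each other, the weekly log2 ratios were weakly alike (Pearson 0.31, Spearman 0.35), with equal signs in 63.4% of genes. Of 11713 genes with at least 50 expected counts in an Oscar-/- library, 27 were at least 2-fold higher (0.231%) and 157 at least 2-fold lower (1.34%) at 2 weeks, against 24 (0.205%) and 37 (0.316%) at 4 weeks. In WT cartilage 168 (1.43%) of these genes were higher and 83 (0.709%) lower at 2 weeks, and 149 (1.27%) higher and 7 (0.0598%) lower at 4 weeks. At both weeks 3 genes were past 2-fold upwards (0.0256%), and these were Ccl21a, Ccl21b and the gene model Gm45837. Downwards there were 12 (0.102%), among them Vsig4, Myoc, Hhip, Fosb and Ihh. They included Serpina1a and Serpina1d, near-identical members of the α1-antitrypsin family between which reads cannot be divided with certainty. Serpina1a was at 22.5 versus 3.62 TPM (2 weeks) and 10.0 versus 3.08 TPM (4 weeks). Just inside the downward limit was Serpina1d, at -2.46 and -1.01 on the log2 scale, and just outside it Tnxb, at -1.19 and -0.97. Upwards, Gm45837 was just inside, with 1.15 at 4 weeks and no ratio at 2 weeks, where the sham library held 0 counts and the DMM library 91.8 expected counts, so that a fitted ratio there would depend on the prior count. Prrx2 was just outside (0.99 and 1.18).

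**Figure D4:**
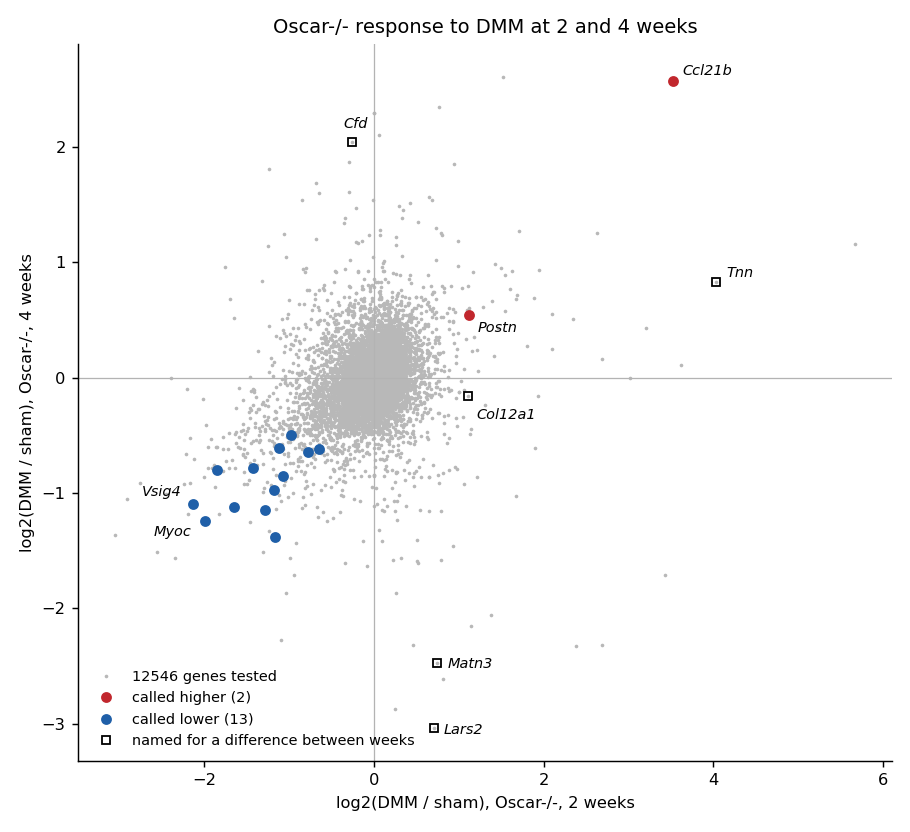
Each grey point is 1 of 12546 genes, placed by its log2(DMM/sham) in Oscar-/- cartilage at 2 weeks (horizontal) and 4 weeks (vertical), with the 15 genes that passed the test in colour and 5 genes named for their difference between weeks as open squares. Cfd and Lars2 lie at 2.04 and -3.04 at 4 weeks, while Tnn lies at 4.04 at 2 weeks and 0.83 at 4 weeks.

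At 2 weeks only, 7 genes were past 2-fold upwards (0.0598%) and 39 downwards (0.333%), the other week being close to no change or reversed. Those upwards included Col12a1, a collagen of fibrous tissue, at 8.47 and 20.0 TPM at 2 weeks and 7.05 and 6.03 TPM at 4 weeks. C1qtnf3, a secreted protein also known as cartducin, was at 0.28 versus 3.90 TPM (2 weeks) and 0.28 versus 0.28 TPM (4 weeks). The DMM library of 2 weeks was the only high one of the 4 in both genes. The difference between the weekly responses was tested across all genes, with 1 residual degree of freedom, and 18 genes were higher and 11 lower at 4 weeks relative to 2 weeks (0.143% and 0.0877%, together 0.231%, edgeR adjusted p under 0.05). DESeq2 called 1 and 0 genes, and limma 15 and 22. This test needs all 4 Oscar-/- libraries, so it has no value without the sham library of 4 weeks. Each weekly response rests on 1 sham and 1 DMM library, so the test cannot tell a change between weeks from 1 library that stands apart. Col12a1 differed by -1.27 ± 0.25 (SE, edgeR adjusted p = 0.00518), Tnn, a tenascin, by -3.28 ± 0.47 (SE, edgeR adjusted p = 1.2e-05) and Col3a1 by -1.20 ± 0.28 (SE, edgeR adjusted p = 0.0396). Of the 15 genes called after DMM over both weeks, Clec3a was the 1 with a called difference between weeks (1.05, edgeR adjusted p = 0.0107), its decrease being smaller at 4 weeks.

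At 4 weeks only, 12 genes were past 2-fold upwards (0.102%). Of these 12, 6 belong to the adipocyte list (Cfd, Cidec, Plin1, Plin4, Retn and Scd1), which holds 10 of the 11713 genes with enough counts (0.0854%). As ratios of TPM, the median log2 value over all genes was -0.03 for the early and -0.15 for the late pair of libraries. Cfd, which encodes the adipokine adipsin, was at 51.5 versus 41.2 TPM (2 weeks) and 31.3 versus 116 TPM (4 weeks). Plin1, a coat protein of lipid droplets, was at 1.57 versus 1.26 TPM (2 weeks) and 1.10 versus 3.12 TPM (4 weeks). The DMM library of 4 weeks was the highest of the Oscar-/- libraries for 9 of 10 adipocyte genes, and the sham library of 4 weeks the lowest for 6 of 10. The weekly medians of this list were -0.12 and 1.31, and the weekly responses of Cfd differed by 2.31 ± 0.25 (SE, edgeR adjusted p = 5.7e-09), with Scd1, Plin1, Thrsp, Cidec and Plin4 (the last chosen after its values had been seen) also passing. Over both weeks, 5 of the 10 were higher at an unadjusted p under 0.05, with a median of 0.64. The median was 0.36 without the sham library of 4 weeks. Without the Oscar-/- DMM library of 4 weeks the log2 fold change of Cfd over the remaining libraries was -0.09.

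Downwards, 17 genes were past 2-fold at 4 weeks only (0.145%), and several of them were high in the sham library of that week alone. Lars2, a mitochondrial leucyl-tRNA synthetase, was at 155 versus 243 TPM (2 weeks) and 2069.5 versus 228 TPM (4 weeks). The sham library of 4 weeks was far above the other 3, as it was in AY036118. The weekly responses of Lars2 differed by -3.74 ± 0.40 (SE), a larger difference than that of Cfd. Several replication-dependent histone genes, whose copies share reads, were high in the same library, such as Hist1h3b at 0.89, 2.15, 12.6 and 2.37 TPM in the order sham and DMM at 2 weeks, then sham and DMM at 4 weeks. Matn3, which encodes the cartilage matrix protein matrilin-3, was at 1.10, 1.81, 3.57 and 0.55 TPM in the same order. Col9a1, a chain of type IX collagen chosen after its values had been seen, was at 4.58, 5.36, 6.52 and 1.56 TPM. In Matn3 and Col9a1 the DMM library of 4 weeks was the lowest of the 4 as well. In WT cartilage at 4 weeks Matn3 was at 3.15 TPM after sham surgery and 2.47 TPM after DMM. Col9a1 was at 5.93 and 5.77 TPM in the same WT libraries. The part of either Oscar-/- library of 4 weeks in the 2 ratios was not tested.

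The same operation gave another response in WT cartilage, which shares no library with the Oscar-/- comparison. The difference between the responses, Oscar-/- minus WT, was called higher in 177 genes (1.41%) and lower in 479 (3.82%), together 5.23%, by the interaction test in edgeR. Scaled by library totals alone the split was 21 higher and 897 lower, and without the Oscar-/- sham library of 4 weeks it was 2 and 100. Of the 13 genes that fell in Oscar-/- cartilage, 12 were called lower in this difference, and the exception was Myoc (-0.32, edgeR adjusted p = 0.645). The 13 were chosen for a low value in Oscar-/- cartilage, which is 1 of the terms of the difference, so that this count is not independent of their choice. Postn was called higher in both genotypes but by less in Oscar-/- cartilage, at 1.12 and 0.55 on the log2 scale at 2 and 4 weeks against 1.94 and 1.87 in WT. Tnxb was at -1.19 and -0.97 in Oscar-/- and at 0.11 and 0.29 in WT, and Cd109 at -0.65 and -0.62 against 0.48 and 0.60. The weekly ratios of the 2 genotypes did not overlap in either gene. Myoc had a log2 fold change of -1.68 in Oscar-/- and of -1.36 in WT, where it was called lower too.

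**Figure D5:**
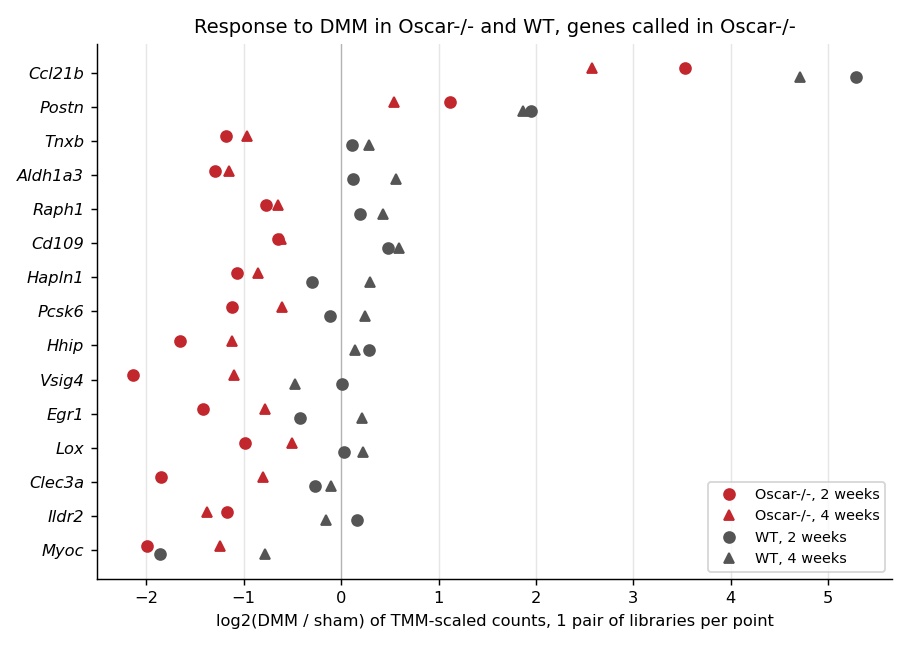
log2(DMM/sham) of TMM-scaled counts for the 15 genes that passed the test in Oscar-/- cartilage, with Oscar-/- in red and WT in grey, circles for 2 weeks and triangles for 4 weeks, 1 pair of libraries per point. For 12 of the 13 lower genes the red symbols lie left of the grey ones, which sit around 0 for Tnxb at 0.11 and 0.29, and Myoc is low in both genotypes.

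Of 548 genes that edgeR called higher after DMM in WT cartilage, 249 (45.4%) had a log2 fold change above 0 in Oscar-/-, against 51.4% of all genes tested. At an unadjusted p under 0.05, 51 of the 548 (9.31%) were higher in Oscar-/-, against 5.21% of all genes. Of 63 genes called lower in WT, 17 (27.0%) were below 0 in Oscar-/-, against 48.6% of all genes, and 4 (6.35%) were lower at an unadjusted p under 0.05, against 6.42%. Mmp2 and Mmp13 had a smaller response in Oscar-/- than in WT, by -1.20 (edgeR adjusted p = 0.0044) and -0.92 (edgeR adjusted p = 0.025). For Tnfsf10 the difference was -0.76 without passing (edgeR adjusted p = 0.0814), and for Tnfrsf11b it was -0.83 (edgeR adjusted p = 0.174). At 2 weeks the Pearson r between the responses of the genotypes was 0.14 across genes, and at 4 weeks it was -0.04.

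The levels of the genes that fell were also ranked over all 8 libraries. In 8 of the 13, both Oscar-/- sham libraries were above all 6 other libraries, WT included, a pattern of 3.02% of all genes tested. The 13 were chosen for sham above DMM, so the 806 genes lower at an unadjusted p under 0.05 are a closer reference. Of those 806, 21.0% showed this pattern. In 11 of the 13 the Oscar-/- sham library of 2 weeks was the highest of the 8, against 12.2% of all genes and 61.8% of the 806. Aldh1a3 was at 4.78 and 5.73 TPM in the Oscar-/- sham libraries, at 2.06 and 2.69 TPM in the WT sham libraries and at 1.94 and 2.45 TPM in the Oscar-/- DMM libraries. Both WT sham libraries thus lay close to the Oscar-/- DMM libraries for this gene. In 5 of the 13, both Oscar-/- DMM libraries were below the other 6 (1.83% of all genes and 11.8% of the 806). Of the 23 cartilage matrix genes, 18 were highest in the Oscar-/- sham library of 2 weeks. Only 2 of the 23 (8.7%) had both Oscar-/- sham libraries above the other 6. These ranks share the sham libraries with the fold changes above and describe the same values.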

How the data were processed

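RNA from pooled knee articular cartilage was sequenced as stranded mRNA libraries (TruSeq), 1 per genotype, surgery and week. The authors aligned reads with STAR 2.6.0a and deposited RSEM 1.2.17 expected counts and TPM per gene, after FastQC 0.11.8. The submitters' notes name a human build, but every matched identifier is of mouse (52489 of 52636 in GENCODE for GRCm38), and the methods give GRCm38. The protocols of the labels and the methods differ on RNA extraction.

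Deposited expected counts were rounded. Protein-coding genes over 1 TPM in at least 1 library were tested (12546), with edgeR 4.0.16 (TMM, quasi-likelihood; R 4.3.3), a term per genotype and surgery and a term for week, so that the weeks stand in for replicates. P-values are two-sided and Benjamini-Hochberg adjusted over all tested genes. Each SE was derived from the edgeR test, as the absolute log2 fold change divided by the square root of its F statistic. It does not measure the spread between animals. Weekly log2 ratios used TMM-scaled counts with a prior count of 2. Fold classes took genes with at least 50 expected counts in an Oscar-/- library, past 2-fold, and for 1 week only with the other week within 1.25-fold or reversed. Alternatives were DESeq2 1.42.0, limma 3.58.1 on log2(TPM + 1), other scalings, filters and models, and leaving out each library. Fits were tested on simulated data. Python 3.11.15 and pandas 2.3.3 made the summaries.

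Named genes were Oscar, the 15 of lowest p in each direction with at least 50 counts, the 8 of largest mean ratio past 2-fold at both weeks and the 6 of largest ratio at 1 week only, per direction, up to 4 of lowest p per list, and those the study names. Clock genes with the motif were added for it. Members and gene lists were chosen with earlier results of these data known. Counting intervals cover counting error only. Lane codes split the libraries by week, and at 4 weeks by genotype, never by surgery within a genotype.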

Additional observations from a re-analysis of the deposited data

Results flagged for a closer look

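Of 656 genes for which the response to DMM in Oscar-/- cartilage differed from that in WT cartilage by the edgeR interaction test (adjusted p under 0.05), 15 are described here: those among the genes called in Oscar-/- cartilage or examined by the study. The values are Oscar-/- minus WT log2 fold changes. Among the genes that fell in Oscar-/- cartilage, the difference was -1.62 for Hhip, -1.57 for Aldh1a3, -1.39 for Vsig4, -1.31 for Ildr2, -1.27 for Tnxb and -1.18 for both Cd109 and Clec3a. It was -1.03 for Raph1, -0.971 for Egr1, -0.963 for Hapln1, -0.927 for Pcsk6 and -0.867 for Lox. These genes were chosen for a low value in Oscar-/- cartilage, which is 1 of the terms of the difference. Their negative differences are therefore not independent of their choice. Postn, higher after DMM in both genotypes, differed by -1.07. Mmp2 and Mmp13, which the study examined, differed by -1.20 and -0.924.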

How the results depend on the processing

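The number of genes called after DMM in Oscar-/- cartilage, 2 higher and 13 lower, depended on the model, and all 15 kept their sign in every alternative run. Calls higher and lower numbered 8 and 129 with library totals, 159 and 382 with no filter, 11 and 63 with DESeq2, 8 and 87 with limma, 58 and 193 with the 4 Oscar-/- libraries alone, 0 and 0 without the week term and 0 and 1 with a week by genotype term. With at least 50 counts in every library, 1 was higher. Leaving out 1 library gave 0 to 33 higher and 0 to 157 lower. The counts were 0 and 0 without Oscar-/- sham at 2 weeks, 13 and 10 without Oscar-/- DMM at 2 weeks, 4 and 30 without Oscar-/- sham at 4 weeks, 19 and 103 without Oscar-/- DMM at 4 weeks, 33 and 157 without WT sham at 2 weeks, 28 and 146 without WT sham at 4 weeks, and 0 and 13 without either WT DMM library. For the difference between genotypes, 177 higher and 479 lower, the counts were 21 and 897 with library totals, 778 and 932 with no filter, and 0 and 0 without the week term. DESeq2 called 284 lower and limma 8 higher. Leaving out 1 library gave 1 to 963 higher and 14 to 1012 lower. For the difference between weeks, 18 higher and 11 lower, DESeq2 gave 1 and 0, RLE size factors 2 and 5, and limma 22 lower. The causes were not tested.

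The fold classes moved with their limits. Past 2-fold at both weeks upwards (3 genes), the counts were 5 with TPM ratios, 6 with a prior count of 0.5, 32 at 1.5-fold, 1 at 3-fold, 1 with at least 200 counts and 5 with no minimum. Downwards (12), they were 26 with TPM ratios, 98 at 1.5-fold, 0 at 3-fold, 6 with at least 200 counts and 21 with no minimum. At 2 weeks only upwards (7), they were 14, 63, 3, 1 and 22 in the same order. Downwards (39), they were 224 at 1.5-fold, 3 at 3-fold, 13 with at least 200 counts and 69 with no minimum. At 4 weeks only upwards (12), these 4 settings gave 84, 4, 5 and 26. Downwards (17), the counts were 38 with TPM ratios, 62, 7, 4 and 40. Gm21887 turned direction, at 7.33 on the log2 scale without Oscar-/- DMM at 4 weeks, with values from -2.50 to 7.33 when 1 library was left out. DMM and sham libraries were paired by week through the week term, and no replicate numbers pair them otherwise. With 1 library per condition, the spread between animals limits every call.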
